A study of Mus musculus with 12 samples.

Results

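The genes of Polycomb repressive complex 2 (PRC2) were examined in RNA sequencing of female mouse primordial germ cells, the embryonic precursors of the oocytes, at stage E14.5, named by the embryonic day. The 10 genes were chosen by name, Ezh2, Ezh1, Eed, Suz12, Rbbp4, Rbbp7, Jarid2, Mtf2, Phf19 and Phf1, and all 10 were found among the 35976 gene symbols of the deposited count table. The 12 libraries formed 4 groups of 3. HxD cells had the genotype Tet1HxD/HxD, with a TET1 protein that lacks catalytic activity. KO cells were Tet1-/-, the knockout, and V cells were Tet1V/V, a mutant TET1 described as stalling at 5-hydroxymethylcytosine. WT cells were wild type. TET1 oxidises 5-methylcytosine in DNA, and the alleles ask how far its catalytic steps are needed. Cells of every group were sorted by an Oct4-GFP reporter, and RNA was taken from 5000 cells. Nothing states that libraries of one group had different embryos as their source, and p-values therefore measure the spread between libraries, which may be technical.

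PRC2 methylates histone H3 on the lysine residue whose trimethylated form marks silenced developmental genes. EZH2, or its less active paralogue EZH1, carries the catalytic site, EED binds the mark and stimulates the enzyme, SUZ12 holds the complex together, and RBBP4 or RBBP7 binds histones. Accessory subunits guide the complex to CpG-rich chromatin: the Polycomb-like proteins MTF2, PHF19 and PHF1 occur in one form and JARID2 in another. In germ cells the mark is found at promoters of developmental regulators that stay poised rather than transcribed.

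All 10 genes were well within reach of the sequencing. Total counts per library lay between 18471158 and 29495313, and the members had between 213 and 18656 counts per library. The number of genes with a count varied by library, with 12815 genes in HxD1, 13879 in KO1 and 12568 in KO3, and up to 17614 in HxD3. Summed over 10 germ cell markers, the level was 3747 to 4094 CPM (counts scaled by TMM to a common library size) in HxD, 4064 to 4303 in KO, 3481 to 4254 in V and 4074 to 4298 in WT. The 10 gonadal somatic markers together reached 6.71 to 13.5 CPM in HxD, 5.51 to 17.6 in KO, 8.61 to 36.5 in V and 10.1 to 33.4 in WT. V1, at 36.5, and WT1, at 33.4, had the highest somatic sums. In WT1 the somatic markers Kitl, Amhr2, Wnt4, Nr5a1 and Wt1 lay between 2.30 and 9.79 CPM, and Foxl2, which defines the supporting cells of the ovary, was at 0 in all 3 WT libraries and at most 3.31 CPM elsewhere. The 10 blood and endothelial markers summed to 2.33 to 6.87 CPM in HxD, 2.86 to 5.72 in KO, 3.47 to 5.34 in V and 5.58 to 14.3 in WT, highest in WT1, with Emcn at 0 in all 12 libraries. The part of these other cell types in the PRC2 levels was not tested. Tet1 transcripts measured 227, 222 and 286 CPM in HxD, 131, 158 and 80.8 CPM in KO, and 226, 197 and 192 CPM in V, beside 91.4, 180.1 and 215.0 CPM in WT. The KO libraries overlapped with WT for Tet1, with a log2 fold change of -0.40 ± 0.24 (SE, 95% interval -0.89 to 0.10). The labels do not name the exons that the knockout allele lacks, so this level does not check the KO label.

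PRC2 transcripts spanned a wide range of abundance in WT germ cells. Divided by the length of the annotated exons (GENCODE M21), Rbbp7 was the most abundant at 230 ± 39.4 CPM per kb (SD, n = 3), followed by Rbbp4 at 109.8 ± 12.3, Phf19 at 88.9 ± 22.6 and Ezh2 at 78.5 ± 10.6. Next in this order per kb came Jarid2 at 60.8 ± 15.8, Suz12 at 53.6 ± 10.2, Mtf2 at 52.4 ± 14.3 and Eed at 42.2 ± 9.32. Ezh1 at 9.40 ± 1.67 and Phf1 at 5.78 ± 2.45 CPM per kb were the lowest. The order was the same when each gene was divided by its longest transcript. Between neighbours in the order, the WT libraries did not overlap for Rbbp7 and Rbbp4, for Eed and Ezh1, or for Ezh1 and Phf1, and they overlapped for every other neighbouring pair. In the mutant groups Ezh2 was likewise far above Ezh1 per kb of exon, at 83.6 and 9.29 in HxD, 95.1 and 8.61 in KO and 91.0 and 7.62 in V.

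Promoters are shown for Suz12, Jarid2 and Mtf2, which correlated with one another over the libraries, as described further on. Beside them stand Rbbp4 and Ezh1, whose Pearson's r with each of these 3 was at most 0.09. RefSeq (GRCm38.p6) gave 12 windows for the 10 genes, each of 250 bases before and 50 bases from the start site on. The 120 bases before the start site are printed 5′ to 3′ on the gene's strand for 5 windows, among those whose printed bases overlapped no annotated exon. Capitals mark the word ATTGG, or CCAAT on the other strand, which the factor NF-Y binds.
Suz12, chr11:79992986-79993105, plus strand: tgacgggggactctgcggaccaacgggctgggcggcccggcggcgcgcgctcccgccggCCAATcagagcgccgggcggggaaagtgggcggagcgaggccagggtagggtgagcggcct
Jarid2, chr13:44730654-44730773, plus strand: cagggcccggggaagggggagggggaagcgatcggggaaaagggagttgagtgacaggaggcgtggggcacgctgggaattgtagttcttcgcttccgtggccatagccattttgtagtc
Mtf2, chr5:108065554-108065673, plus strand: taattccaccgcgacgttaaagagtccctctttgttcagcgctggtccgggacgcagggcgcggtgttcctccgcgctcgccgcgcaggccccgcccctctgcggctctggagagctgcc
Rbbp4, chr4:129335371-129335490, minus strand: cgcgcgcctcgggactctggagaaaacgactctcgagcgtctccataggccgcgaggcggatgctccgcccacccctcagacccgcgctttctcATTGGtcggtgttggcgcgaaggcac
Ezh1, chr11:101226464-101226583, minus strand: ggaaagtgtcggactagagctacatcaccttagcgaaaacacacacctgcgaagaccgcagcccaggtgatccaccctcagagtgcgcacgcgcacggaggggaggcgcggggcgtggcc
The printed windows were rich in CpG: the Suz12 window held 41 CpG in 300 bases, Rbbp4 39, the printed Mtf2 promoter 30, the printed Jarid2 promoter 24 and Ezh1 23, whereas the median over 27025 genes was 7. A second Mtf2 window, not printed, held only 2 CpG. ATTGG occurred on either strand in a window of 7 of the 10 members, Ezh2, Eed, Suz12, Jarid2, Rbbp4, Rbbp7 and Mtf2, and in 41.1% of all 27025 genes. For Mtf2 all 3 matches lay in the CpG-poor second window and none in the printed one. A word of the E2F factors (TTTCCCGC, TTTGGCGC or TTTCGCGC) occurred in 3 members, Ezh2, Suz12 and Phf19, and in 2.12% of all genes. Each of these words contains a CpG, and the windows of these 3 members held 31, 41 and 38 CpG. The 2.12% comes from all genes, with a median of 7 CpG, so it is no share among promoters of like CpG content. The ETS word CCGGAAG was in none of the members' windows and in 9.93% of all genes. These matches describe the letters of the windows and no binding was measured.

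Of the 10 members, 1 was called in 1 of the 3 mutants: Suz12 in KO germ cells, at 1.62 times the WT level. This call was kept in only 2 of the 12 fits that left out 1 library. Eed, Jarid2, Mtf2 and, by less, Ezh2 averaged above WT in all 3 mutants without passing the adjusted threshold. Ezh1, Rbbp4, Rbbp7, Phf19 and Phf1 differed from WT by less than the spread between libraries allows to be called. All 10 passed the filter on low counts and were tested among 16166 genes with edgeR's quasi-likelihood test, adjusted over all of them by the Benjamini-Hochberg method and called at an adjusted p under 0.05. In KO, 1 of 10 members was called, against 1.22% of all genes tested. In HxD 0 of 10 were called, against 0.0309% of all genes, and in V 0 of 10, against 0.155%. With the 3 mutants averaged and compared with WT, 0 of 10 were called, against 1.22%. The 3 mutants share the same WT libraries, so their comparisons are not independent of one another. RNA came from pools of cells, and fewer cells of a type cannot be told apart from less RNA per cell.

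More members lay under an unadjusted p of 0.05, all of them above WT. These were Eed, Suz12, Jarid2 and Mtf2 in HxD (4 of 10, against 7.25% of all genes), the same 4 in KO (against 13.2%), Eed and Mtf2 in V (2 of 10, against 9.69%) and again the 4 in the average of the mutants (against 13.2%). DESeq2 called Suz12 in KO (4.01% of all genes called), Eed in V (1.72%) and Eed, Suz12 and Mtf2 in the average (4.13%), and no member in HxD (0.528%). Limma-voom called Suz12 in KO (1.16%) and Mtf2 in the average (2.14%), and no member in HxD (0.0928%) or V (0.124%). The median log2 fold change of the 10 members was 0.08 in HxD, 0.28 in KO and 0.26 in V, where all tested genes had medians of -0.01, -0.02 and 0.00. The number of the 10 members above 0 was 7 in HxD, 6 in KO and 8 in V, against 49.3%, 48.6% and 49.8% of all tested genes.

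**Figure D1:**
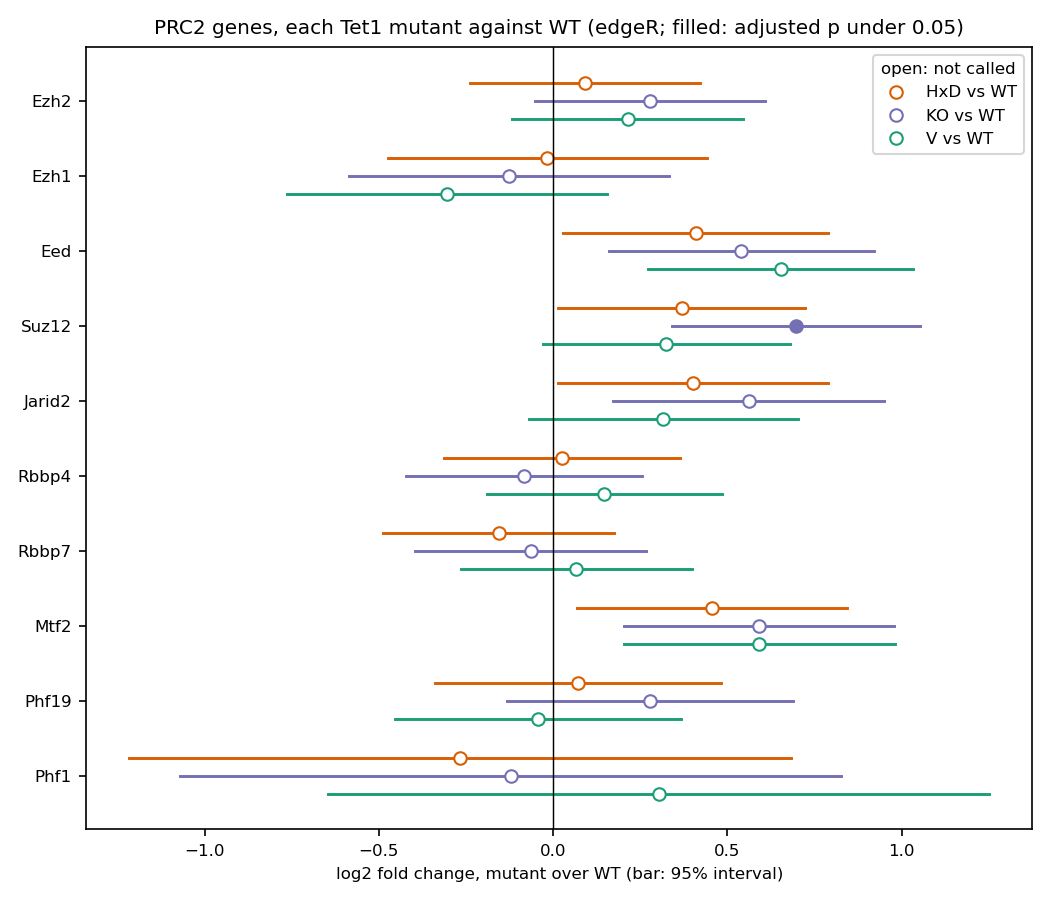
Log2 fold change of each PRC2 gene (rows) in HxD, KO and V over WT (x axis), with 95% intervals from edgeR. Filled points passed an adjusted p under 0.05: only Suz12 in KO is filled, at 0.70, while the intervals of Eed and Mtf2 lie above 0 in all 3 mutants and those of Ezh2, Ezh1, Rbbp4, Rbbp7, Phf19 and Phf1 span 0 in all 3.

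Suz12, the scaffold subunit, was the member called in KO. It measured 306, 295 and 307 CPM in HxD, 364, 417 and 359 CPM in KO and 338, 267 and 276 CPM in V, against 186, 275 and 243 CPM in WT. Every HxD and KO library lay above every WT library, whereas V2 lay below WT2. The log2 fold change in KO was 0.70 ± 0.17 (SE, adjusted p = 0.0409), with a 95% interval of 0.34 to 1.05, and Suz12 ranked 154th by p among all genes. In HxD it was 0.37 ± 0.17 (adjusted p = 0.685) and in V 0.33 ± 0.17 (adjusted p = 0.556). KO was not shown to differ from the other mutants, since V minus KO was -0.37 (95% interval -0.73 to -0.02, unadjusted p = 0.0398, adjusted p = 0.945) and HxD minus KO was -0.33 (-0.68 to 0.02, adjusted p = 1.0). The call in KO sat at the edge of the threshold: leaving out each of the 12 libraries in turn, it was kept without HxD1 and without V1 and lost in the other 10 fits, with log2 fold changes of 0.56 to 0.83 and adjusted p of 0.0366 to 0.243. It was also lost with DESeq2's size factors (log2 fold change 0.65, adjusted p = 0.0546), in a fit of KO and WT alone (0.69, adjusted p = 0.0709) and without HxD1, KO1 and KO3, the libraries that captured few genes (0.83, adjusted p = 0.149).

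Eed, the subunit that reads the methyl mark, had its highest levels in V3 and V1, while V2 lay below HxD1 and KO2. The values were 127, 115 and 106 CPM in HxD, 124, 132 and 126 CPM in KO and 141, 126 and 145 CPM in V, against 83.1, 70.5 and 108.3 CPM in WT. All KO and V libraries exceeded all WT libraries, and in HxD only HxD3 fell below WT3. The log2 fold changes were 0.41 ± 0.19 in HxD (SE, adjusted p = 0.673), 0.54 ± 0.19 in KO (adjusted p = 0.169) and 0.65 ± 0.19 in V (adjusted p = 0.156). Averaged over the mutants, Eed was 0.53 ± 0.16 above WT on the log2 scale (adjusted p = 0.0910, 95% interval 0.21 to 0.85). Without WT3, the WT library with the most Eed, V (0.84, adjusted p = 0.0472) and the average (0.72, adjusted p = 0.0282) were called. Across the 12 such fits the adjusted p ran from 0.0472 to 0.63 in V and from 0.0282 to 0.406 in the average. Eed shares sequence with a neighbour: 10.5% of the 50-base words of its longest transcript also occur in transcripts of other genes, chiefly E230029C05Rik, on the opposite strand, and the sources used here do not give the strand setting of the counting.

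**Figure D2:**
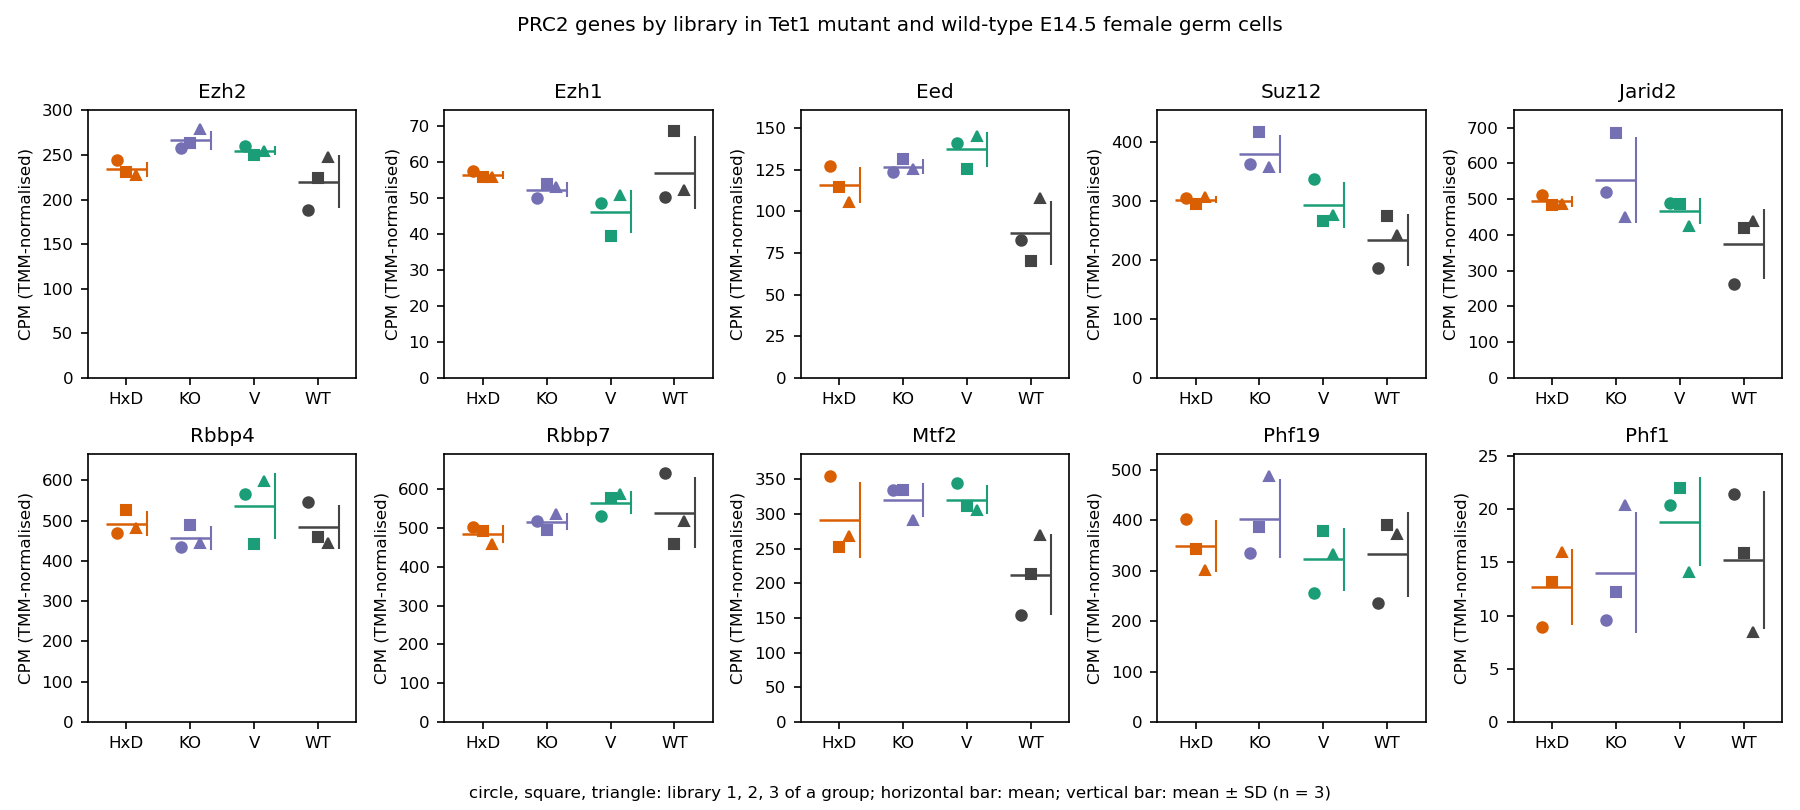
Level of each PRC2 gene in every library (y axis, TMM-scaled CPM from 0, a scale of its own per gene), with the mean and SD of the 3 libraries of HxD, KO, V and WT. For Suz12, Eed, Mtf2 and Jarid2 the WT means are the lowest of the 4 groups, with WT1 or WT2 at the bottom, while Rbbp4, Rbbp7, Phf19, Phf1 and Ezh1 overlap between WT and each mutant group.

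Ezh2, the main methyltransferase, averaged slightly above WT in each mutant without being called. It measured 244, 231 and 228 CPM in HxD, 258, 263 and 279 CPM in KO and 260, 250.3 and 255 CPM in V, against 188, 224 and 247 CPM in WT. The KO and V libraries all exceeded WT, V2 only narrowly, and HxD overlapped with WT. The log2 fold changes were 0.09 (95% interval -0.24 to 0.42) in HxD, 0.28 (-0.05 to 0.61) in KO and 0.21 (-0.12 to 0.54) in V, with adjusted p of 0.999, 0.465 and 0.740.

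Ezh1, the alternative methyltransferase that predominates in non-dividing cells, did not share this direction. Its levels were 57.7, 56.0 and 55.9 CPM in HxD, 50.01, 54.0 and 53.0 CPM in KO and 48.7, 39.4 and 50.9 CPM in V, against 50.3, 68.8 and 52.4 CPM in WT. All 3 mutant groups overlapped with WT, where WT2 stood above every other library. The log2 fold changes were -0.02 (95% interval -0.48 to 0.44) in HxD, -0.13 (-0.59 to 0.33) in KO and -0.30 (-0.76 to 0.16) in V, with adjusted p of 1.0, 0.870 and 0.729.

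The ratio of Ezh1 to Ezh2 within a library sets the paralogues against each other free of library size. It was 0.237, 0.242 and 0.245 in HxD, 0.194, 0.205 and 0.190 in KO and 0.187, 0.157 and 0.200 in V, against 0.267, 0.307 and 0.212 in WT. The KO and V libraries all lay below WT and the HxD libraries lay inside the WT range. The difference in mean log2 ratio was -0.40 in KO and -0.52 in V (exact permutation p = 0.1 each, the smallest that 3 against 3 allows) and -0.10 in HxD (exact permutation p = 0.7). All 9 mutant libraries against WT gave -0.34 (exact permutation p = 0.0636, two-sided). After adjustment over the 12 tests of 3 such ratios, the adjusted p was 0.2 for KO, V and the 9 libraries and 0.764 for HxD. No ratio passed, but tests of 3 against 3 could not have passed. The test of the 9 libraries could not have passed for 1 ratio alone, so these adjusted values decide nothing.

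Rbbp4 and Rbbp7, the histone-binding subunits that PRC2 shares with other chromatin complexes, showed no called difference. Rbbp4 ranged from 469 to 527 CPM in HxD, 435 to 490 CPM in KO and 443 to 598 CPM in V, against 445 to 546 CPM in WT. Rbbp7, an X-linked gene, ranged from 459 to 502 CPM in HxD, 494 to 537 CPM in KO and 530 to 587 CPM in V, against 460 to 641 CPM in WT. Every group overlapped with WT for both genes. The 95% intervals of the log2 fold changes lay between -0.49 and 0.49 for both genes in all 3 mutants, with the smallest adjusted p at 0.982 in HxD, 0.887 in KO and 0.902 in V. The ratio of Rbbp7 to Rbbp4 averaged 0.986 ± 0.0744 in HxD, 1.14 ± 0.111 in KO and 1.07 ± 0.201 in V, against 1.11 ± 0.0988 in WT (SD, n = 3 each; exact permutation p of 0.2, 0.5 and 0.8). Of the 50-base words in the longest Rbbp7 transcript, 15.1% also occur in other genes, mainly Txlng.

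**Figure D3:**
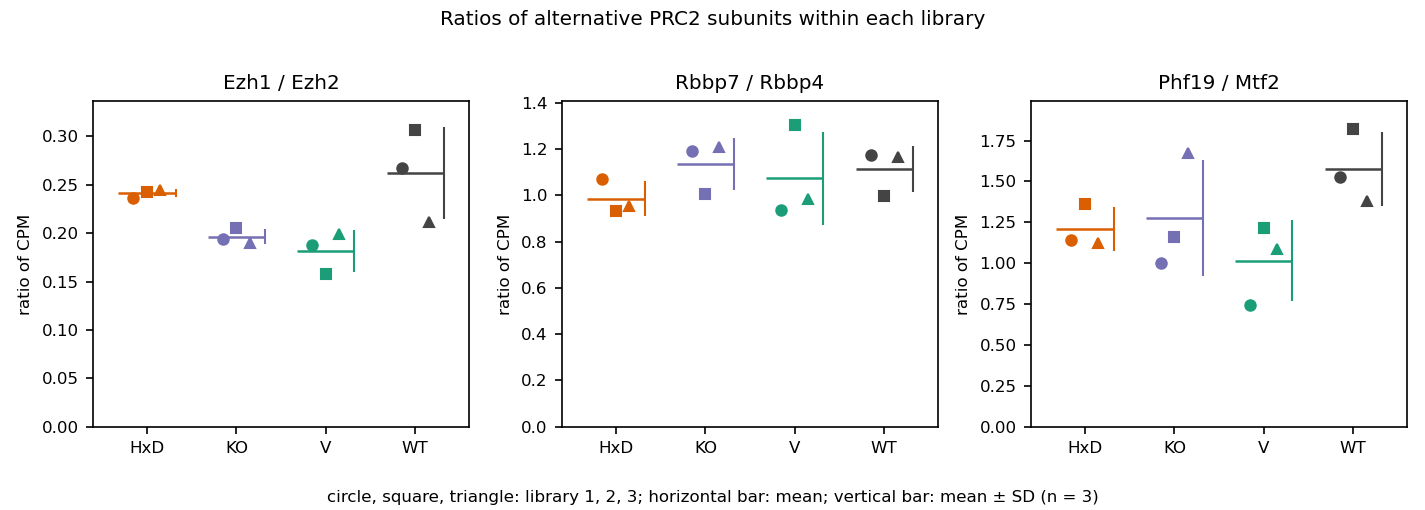
Ratios of alternative subunits within each library (y axis, ratio of CPM, from 0) for Ezh1 over Ezh2, Rbbp7 over Rbbp4 and Phf19 over Mtf2, with the mean and SD of 3 libraries for HxD, KO, V and WT. The Ezh1 to Ezh2 ratios of KO and V, at most 0.205, lie below the lowest WT ratio of 0.212, and the Phf19 to Mtf2 ratios of V and HxD lie below those of WT, whose lowest is 1.38.

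Mtf2, a Polycomb-like protein that binds unmethylated CpG-rich DNA, averaged higher in all 3 mutants. It measured 354, 252 and 268 CPM in HxD, 335, 335 and 292 CPM in KO and 345, 312 and 305 CPM in V, against 154, 214 and 270.1 CPM in WT. Every KO and V library exceeded every WT library, and 2 of the 3 HxD libraries lay just below WT3. The log2 fold changes were 0.45 ± 0.19 in HxD (SE, adjusted p = 0.614), 0.59 ± 0.19 in KO (adjusted p = 0.132) and 0.59 ± 0.19 in V (adjusted p = 0.231). The average of the mutants was 0.55 ± 0.16 above WT (adjusted p = 0.0900), a 1.46-fold difference with a 95% interval of 0.22 to 0.87 on the log2 scale. Without WT3, the call was made in KO (0.80, adjusted p = 0.0333) and in the average (0.76, adjusted p = 0.0234). Across the 12 fits without 1 library the adjusted p ran from 0.0333 to 0.541 in KO and from 0.0234 to 0.561 in the average. In Mtf2, 8.68% of the 50-base words of the longest transcript are shared with other genes, mainly Tmed5.

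Phf19 and Phf1, the other Polycomb-like genes, were not called in any comparison. Phf19 ranged from 301 to 403 CPM in HxD, 335 to 488 CPM in KO and 256 to 380 CPM in V, against 236 to 390 CPM in WT, so that all groups overlapped. Its log2 fold changes were 0.07 (95% interval -0.34 to 0.48) in HxD, 0.28 (-0.13 to 0.69) in KO and -0.04 (-0.45 to 0.37) in V. Phf1, the least abundant member, ranged from 8.92 to 16.0 CPM in HxD, 9.54 to 20.4 CPM in KO and 14.1 to 22.0 CPM in V, against 8.48 to 21.4 CPM in WT. Its intervals were the widest of the 10, from -1.22 to 0.68 in HxD, -1.07 to 0.83 in KO and -0.65 to 1.25 in V. Changes of Phf1 within these intervals were not excluded. Of its 50-base words 30.3% are shared with other genes, mainly Cuta, so its counts are uncertain.

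Within the Polycomb-like genes, the ratio of Phf19 to Mtf2 averaged lower in the mutants than in WT. The adjusted threshold was not passed, and with so few libraries 1 ratio alone could not have passed it. The ratio was 1.14, 1.36 and 1.12 in HxD, 1.0, 1.16 and 1.67 in KO and 0.742, 1.22 and 1.09 in V, against 1.53, 1.82 and 1.38 in WT. The HxD and V libraries lay below all WT libraries, and KO3 lay inside the WT range. The difference in mean log2 ratio was -0.38 in HxD and -0.65 in V (exact permutation p = 0.1 each) and -0.33 in KO (exact permutation p = 0.3). For the 9 mutant libraries it was -0.45 (exact permutation p = 0.0364, adjusted p = 0.2).

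Jarid2, a member of the Jumonji family without demethylase activity that recruits PRC2, had its highest values in KO2 and KO1, while KO3 lay below every HxD library. The levels were 513, 483 and 487 CPM in HxD, 521, 685 and 451 CPM in KO and 489, 487 and 424 CPM in V, against 263, 421 and 440.0 CPM in WT. All HxD and KO libraries exceeded all WT libraries, and V3 lay below WT3. WT1 was far below the other WT libraries and KO2 far above the other KO libraries. The log2 fold changes were 0.40 ± 0.19 in HxD (SE, adjusted p = 0.685), 0.56 ± 0.19 in KO (adjusted p = 0.161) and 0.32 ± 0.19 in V (adjusted p = 0.620). Without WT1 the value in KO was 0.36 (adjusted p = 0.594), the lowest of the 12 fits without 1 library.

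The members were also counted without a model, by whether the libraries of a mutant overlapped with WT. In HxD, 2 of 10 members had all 3 libraries above all WT libraries (Suz12 and Jarid2), against 6.43% of all tested genes. In KO there were 5 (Ezh2, Eed, Suz12, Jarid2 and Mtf2), against 8.17%, and in V 3 (Ezh2, Eed and Mtf2), against 8.7%. No member lay below WT in all 3 libraries of HxD, KO or V, where the shares of all genes were small too, at 5.77%, 8.36% and 7.48%. No member had all 9 mutant libraries above WT, against 1.79% of genes.

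Between the mutants no member was called. The percentage of all genes called was 0 in HxD against KO, 0 in V against KO and 0 in V against HxD with edgeR, and 3.18%, 4.62% and 2.02% of genes had an unadjusted p under 0.05 in these 3 comparisons. Among the members this was so for Suz12 in V against KO alone. DESeq2 called no member in any of the 3, with 0.161%, 0.0994% and 0.0947% of genes called, and limma-voom called no gene, 0 in each. Excluding Phf1, the 95% intervals of the members' log2 fold changes between mutants reached down to -0.75 (Ezh1) and up to 0.62 (Eed), both in V against HxD.

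Ezh2, Eed, Suz12, Jarid2 and Mtf2 are the members whose KO libraries all lay above WT, so some correlation among them over the 12 libraries follows from how they were grouped. Pearson's r of their log2 levels lay between 0.56 and 0.88 for the 10 pairs of these 5 genes, with the highest value for Suz12 and Jarid2. Their r with the other 5 members lay between -0.61 and 0.60, the highest being that of Ezh2 with Phf19, which exceeded the 0.56 of Eed with Suz12. After the mean of each group was subtracted, the 10 pairs ranged from -0.01 for Eed and Suz12 to 0.82 for Ezh2 and Mtf2, and Ezh2 with Phf19 stood at 0.70. Within groups Rbbp7 varied against Suz12, with r = -0.93. These values are descriptions over 12 libraries that share groups and a common scaling.

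**Figure D4:**
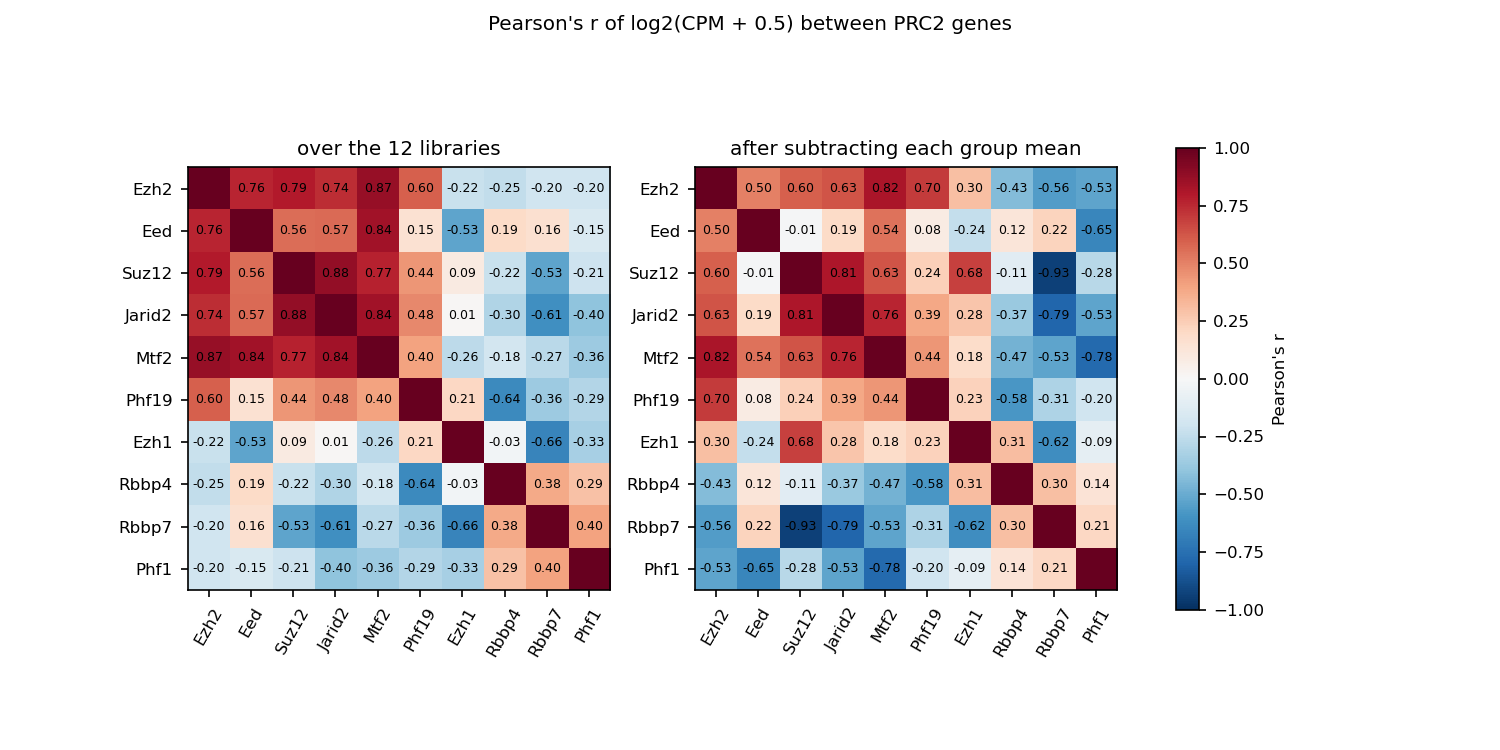
Pearson's r between the log2 levels of PRC2 genes over the 12 libraries (left) and after subtracting each group's mean (right), with red for positive and blue for negative values. Ezh2, Eed, Suz12, Jarid2 and Mtf2 form a red block of 0.56 to 0.88 on the left that is weaker on the right, where Eed and Suz12 stand at -0.01.

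Across 9981 genes ranked by likeness to Ezh2 over the 12 libraries, the closest were Ccna2 (r = 0.953), which drives DNA replication and entry into mitosis, Ptbp3 (0.93), a splicing regulator, Sdad1 (0.925), Ppp2r1b (0.921) and AU015836 (0.913). The closest to Ezh1 were Acsf2 (0.933), Arhgap26 (0.904), Zfp788 (0.885), Tmcc2 (0.866) and Ncoa1 (0.854), a nuclear receptor coactivator. No gene was among the 5 closest of both paralogues. Spearman's rho was below r for all 5 neighbours of Ezh1, at 0.79, 0.839, 0.734, 0.517 and 0.629 in the same order. For those of Ezh2 it lay between 0.909 and 0.972. All were picked as the highest r among the 9981 genes, so these values are descriptions and no test.

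Of 5 further PRC2 accessory genes, 1 fell in the average of the mutants by edgeR, where 1.22% of all genes tested were called. It encodes an inhibitor of the complex. Ezhip, listed under its older symbol AU022751, is an X-linked germline gene whose product blocks the catalytic site of EZH2. It measured 21.9, 22.9 and 17.3 CPM in HxD, 26.7, 14.6 and 11.8 CPM in KO and 16.4, 23.2 and 24.1 CPM in V, against 45.7, 47.0 and 32.9 CPM in WT. All 9 mutant libraries lay below all WT libraries, as they did for 2.05% of all tested genes. Averaged over the mutants, its log2 fold change was -1.08 ± 0.27 (SE, adjusted p = 0.0398), a level 0.473 times that of WT, whereas HxD (-1.02, adjusted p = 0.495), KO (-1.24, adjusted p = 0.0779) and V (-0.98, adjusted p = 0.314) were not called singly by edgeR. DESeq2 called Ezhip lower in KO and in the average, and limma-voom in the average. Leaving out each library in turn kept the call in 4 of 12 fits, with log2 fold changes of -1.23 to -0.99 and adjusted p of 0.0153 to 0.280. It was lost without HxD2, HxD3, KO2, V1, V2, V3, WT1 or WT2. Aebp2, the partner of JARID2, averaged 113 CPM in HxD, 104 in KO and 94.3 in V, against 90.3 in WT, and was not called (average log2 fold change 0.19, adjusted p = 0.714).

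**Figure D5:**
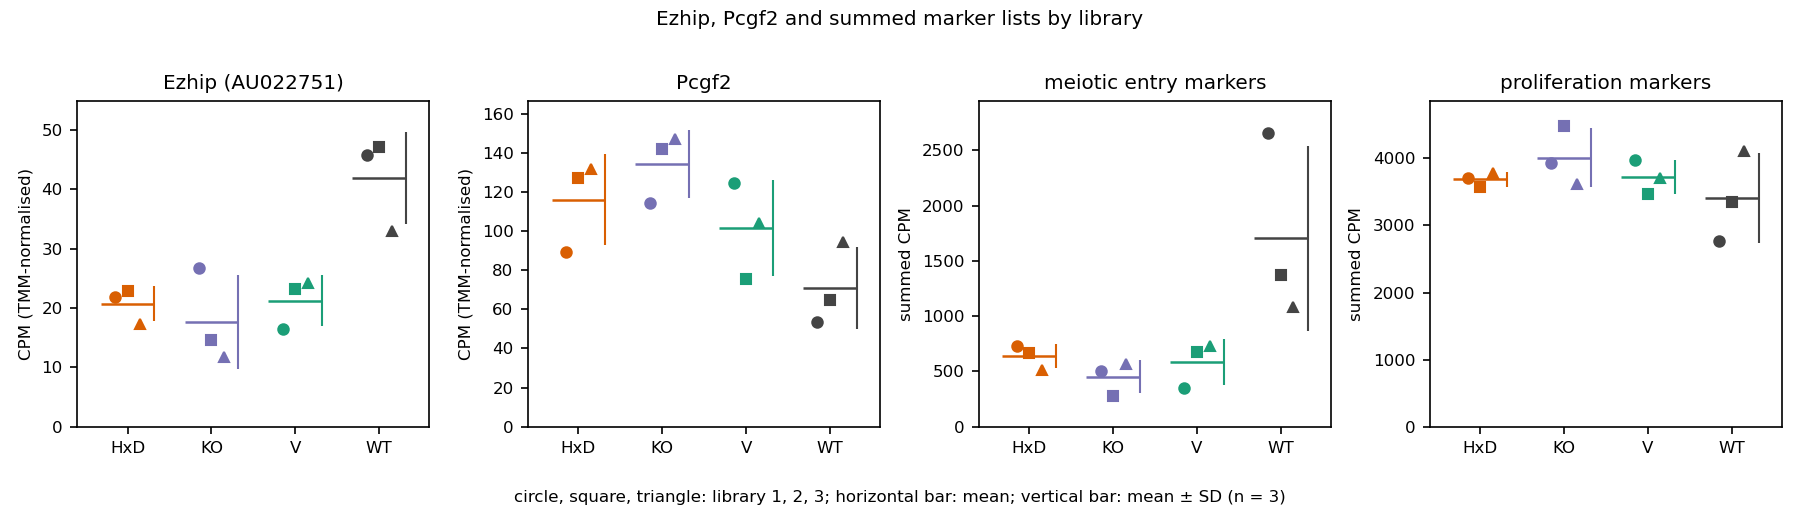
Levels of Ezhip (AU022751) and Pcgf2 and the summed levels of 8 meiotic entry and 10 proliferation markers in every library (y axes, TMM-scaled CPM from 0), with the mean and SD of 3 libraries for HxD, KO, V and WT. For Ezhip and the meiotic markers all 9 mutant libraries lie below the 3 WT libraries, while the proliferation sums of all mutant groups overlap with WT.

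The enzymes that remove the PRC2 mark were not called by edgeR, DESeq2 or limma-voom, and neither had an unadjusted p under 0.05 in any mutant. Kdm6a, the X-linked demethylase, averaged 80.6 ± 20.9 CPM in HxD, 95.8 ± 22.1 in KO and 81.7 ± 6.66 in V, against 91.2 ± 11.1 in WT (SD, n = 3 each). Kdm6b was scarce, at 4.55 ± 3.16 CPM in HxD, 4.30 ± 1.74 in KO and 7.12 ± 2.65 in V, against 10.3 ± 5.85 in WT (SD, n = 3 each). Its interval in the average of the mutants ran from -2.27 to 0.30 on the log2 scale.

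Genes of PRC1, which ubiquitinates histone H2A and whose canonical form binds the PRC2 mark, were called in 1 case by edgeR. Of 11 canonical PRC1 genes, Pcgf2 rose in KO by edgeR, DESeq2 and limma-voom, which called 1.22%, 4.01% and 1.16% of all genes. The other 10 were not called in any mutant by these tools. DESeq2 also called Pcgf2 higher in the average of the mutants (4.13% of all genes). Under an unadjusted p of 0.05, 1 canonical gene lay above WT in HxD and 1 in KO. In V, 1 lay above WT and 2 below. Pcgf2 measured 89.2, 127 and 132 CPM in HxD, 115, 142 and 147 CPM in KO and 125, 75.6 and 104 CPM in V, against 53.6, 64.7 and 94.3 CPM in WT. All KO libraries exceeded WT, while HxD and V overlapped with it. The log2 fold change in KO was 0.92 ± 0.23 (SE, adjusted p = 0.0385). Leaving out single libraries kept the call in 7 of 12 fits, with adjusted p of 0.0092 to 0.225, and it was lost without KO2, KO3, V3, WT1 or WT2, and also under a filter of at least 5 CPM on average (adjusted p = 0.0551) and without HxD1, KO1 and KO3 (adjusted p = 0.178). None of the 4 core or shared genes (Rnf2, Ring1, Rybp and Yaf2) was called in any mutant or in the average by edgeR, DESeq2 or limma-voom, and 0 lay under an unadjusted p of 0.05. Of the 12 variant PRC1 genes edgeR and limma-voom called none, and DESeq2 called Bcorl1 lower in KO. Under an unadjusted p of 0.05 lay 1 of the 12 in HxD, 2 in KO and 0 in V, against 7.25%, 13.2% and 9.69% of all genes. Among the variant genes Pcgf6 was 0.44 higher and Bcorl1 0.91 lower in the average on the log2 scale (adjusted p = 0.244 and 0.194).

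Classical targets of PRC2 stayed near the limit of detection. Of 40 such genes, among them Hox, Pax and Gata genes, 8 had no count in any library and 29 averaged under 1 CPM. The 21 that passed the filter on low counts included 0 calls in HxD, KO, V and the average with edgeR. Under an unadjusted p of 0.05 lay 2 in KO and in the average, 1 in V and 0 in HxD, all below WT. The shares of all genes were 13.2% in KO and in the average, 9.69% in V and 7.25% in HxD. DESeq2 called 1 of the 40, Pax2, below WT in KO, V and the average, against 4.01%, 1.72% and 4.13% of all genes. Limma-voom called it in the average, against 2.14%. Pax2, a gene of kidney and midbrain development, was named here after its values were seen. Msx1, a homeobox gene, averaged 21.2 CPM in HxD, 14.3 in KO and 15.7 in V, against 25.8 in WT (average log2 fold change -0.62, adjusted p = 0.373). Pax6 varied from 0.267 to 10.6 CPM in KO alone, and its interval in the average ran from -1.04 to 2.73.

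Levels of meiotic, proliferation and germ cell markers are set beside the PRC2 genes here. The 8 meiotic entry markers summed to 514 to 726 CPM in HxD, 282 to 566 CPM in KO and 351 to 734 CPM in V, against 1087 to 2658 CPM in WT, and none was at 0 in any library. Of the 8, edgeR called 6 lower in KO, 2 in V and 7 in the average, against 1.22%, 0.155% and 1.22% of all genes. In HxD edgeR called 0 of them (0.0309% of all genes), with 7 under an unadjusted p of 0.05 (7.25% of all genes). DESeq2 and limma-voom called 3 each in HxD, against 0.528% and 0.0928% of all genes. Stra8, the gatekeeper of meiosis, fell in KO by 2.90 ± 0.45 on the log2 scale (SE, adjusted p = 0.000907). Within WT, WT1 had the highest meiotic sum, at 2658 CPM, and the lowest Ezh2, Suz12, Jarid2 and Mtf2 of the 12 libraries. KO2 had the lowest meiotic sum, at 282 CPM, and the highest Suz12 and Jarid2. The highest Ezh2 was in KO3, the highest Mtf2 in HxD1 and the highest Eed in V3, while the lowest Eed was in WT2. HxD1 and V3 had the highest meiotic sums of the mutant libraries, at 726 and 734 CPM. The 10 proliferation markers summed to 3567 to 3785 CPM in HxD, 3621 to 4489 in KO and 3474 to 3982 in V, against 2774 in WT1, 3355 in WT2 and 4104 in WT3. Of these 10, 0 were called in any mutant by edgeR, DESeq2 or limma-voom. Under an unadjusted p of 0.05 lay 2 in HxD, 3 in KO and 3 in V, against 7.25%, 13.2% and 9.69% of all genes. Of the 10 germ cell markers, edgeR called 1 lower in HxD, where 0.0309% of all genes were called. In KO it called 2 higher (Sox2 and Nanog) and 1 lower, against 1.22% of all genes. In V it called 1 higher (Pou5f1) and 1 lower, against 0.155%. In the average of the mutants 4 were higher (Pou5f1, Sox2, Nanog and Dnd1) and 1 lower, against 1.22% of all genes. DESeq2 called 5 higher in KO, adding Pou5f1, Dnd1 and Sall4, and 3 higher in V, with 1 lower in each. Its shares of all genes called were 4.01% in KO and 1.72% in V. The median log2 fold change of the 10 was 0.50 in HxD, 0.66 in KO and 0.60 in V. Dazl fell in all 3, with log2 fold changes of -1.09 in HxD, -1.15 in KO and -1.22 in V (adjusted p = 0.0197, 0.00217 and 0.00312). The part of these markers in the PRC2 levels was not tested.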

How the data were processed

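RNA was sequenced from sorted primordial germ cells in 12 libraries, 4 groups of 3, with groups and numbers taken from the sample titles. The deposited table gives raw counts for each gene symbol, as whole numbers that the authors did not normalize. The tools that the submitters' processing notes name are featureCounts 2.0.3, STAR 2.7.10b, Trim Galore 0.6.7, SAMtools 1.9 and FastQC, and the builds are GRCm39 and mm10, without a role. No source used here gives the annotation, strand setting or handling of multiply mapped reads, which leaves overlapping genes uncertain. Per the labels' protocols, mRNA was isolated on oligo-dT beads before library preparation with NEB reagents.

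The 10 members and all gene lists were chosen with earlier results of these data known. The main test was edgeR 4.0.16 in R 4.3.3 (quasi-likelihood F test, two-sided, TMM, default filterByExpr, 16166 genes, all 12 libraries in 1 fit with 8 residual degrees of freedom). The SE of a log2 fold change is its absolute value over the root of F. CPM are TMM-scaled, with 0.5 added before logs for correlations. Ratios were compared with exact permutation tests. Alternatives were limma-voom (limma 3.58.1), DESeq2 1.42.0, DESeq2's size factors, 2 other filters, fits of the compared groups alone, a replicate block, fits without 1 library and a fit without HxD1, KO1 and KO3. The scripts were tested on simulated counts. Named genes besides the members were, per list, up to 4 called genes with the smallest adjusted p and the 2 with the largest averaged change among those of at least 5 CPM. Replicates of a group differed by 31.9 to 124.0 times sampling noise (chi-square per degree of freedom), so each library was counted once. Reads carry no molecular identifiers.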

Additional observations from a re-analysis of the deposited data

How the results depend on the processing

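Among the members, Suz12 in KO was called by edgeR, DESeq2 and limma-voom but lost under the settings given with it, and no other member was called by edgeR with all 12 libraries and the default filter. The number of members called in KO was 0 with DESeq2's size factors, 0 in the fit of KO and WT alone and 0 without HxD1, KO1 and KO3. In V it was 1 with DESeq2, and in the average of the mutants 3 with DESeq2, 1 with limma-voom and 1 (Mtf2) without a filter on low counts. Without 1 library it ran from 0 to 1 in KO, 0 to 1 in V and 0 to 2 in the average.

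Over all genes, calls in HxD numbered 84 with DESeq2, 15 with limma-voom, 71 without a filter, 1 with a mean of at least 5 CPM and 20 in the fit of the compared groups alone. In KO they numbered 626 with DESeq2, 464 without a filter and 30 without HxD1, KO1 and KO3. In V they numbered 268 with DESeq2, 176 without a filter, 5 with at least 5 CPM and 16 without HxD1, KO1 and KO3. In the average they numbered 632 with DESeq2, 346 with limma-voom and 429 without a filter. HxD against KO had 34 calls with DESeq2, 1 with its size factors in edgeR, 10 without a filter and 1 with the compared groups alone. V against KO had 21 with DESeq2, 5 without a filter and 1 with the compared groups alone, and V against HxD had 20 with DESeq2 and 1 without a filter. Without 1 library, calls ran from 1 to 35 in HxD, 31 to 357 in KO, 2 to 110 in V, 29 to 313 in the average, 0 to 3 in HxD against KO and in V against KO, and 0 to 1 in V against HxD. The counts in HxD, KO, V and the average were all highest without WT3; without WT1 they were 1 in HxD, 31 in KO, 10 in V and 29 in the average, and V was lowest, at 2, without V1. The cause was not tested.

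Replicate numbers did not pair the libraries: deviations of the 18 same-numbered pairs correlated between -0.166 and 0.128, with 1 pair over 0.1 and 3 of 12 libraries closest to their own number. With a replicate block, calls were 22 in HxD, 73 in V, 2 in HxD against KO and 1 in V against KO, and no member's call changed.

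Differences near 0 changed sign. Ezh1 in HxD was 0.015 with limma-voom. Rbbp4 in HxD was -0.0097 with DESeq2, -0.0096 with its size factors and -0.0015 with at least 5 CPM, and in the average -0.0087 and -0.0086 with DESeq2 and its size factors. Mtf2 in V against KO was -0.0069 with limma-voom and -0.00077 with the replicate block, and Phf19 in V was 0.0091 with limma-voom. Without HxD1, KO1 and KO3, Rbbp4 in KO was 0.018, Mtf2 in V against KO -0.062, Phf19 -0.045 in HxD and 0.0016 in V against HxD, Phf1 in HxD against KO 0.26, and the log2 Rbbp7 to Rbbp4 ratio in KO -0.14. Without 1 library, ranges that crossed 0 were, in HxD, Ezh2 -0.0089 to 0.18, Ezh1 -0.10 to 0.14, Rbbp4 -0.031 to 0.12, Phf19 -0.12 to 0.20 and Phf1 -0.56 to 0.058. In KO they were Ezh1 -0.21 to 0.027, Rbbp4 -0.14 to 0.012, Rbbp7 -0.17 to 0.078 and Phf1 -0.49 to 0.20, and in V Rbbp7 -0.037 to 0.21 and Phf19 -0.24 to 0.099. In the average they were Ezh1 -0.23 to 0.0055, Rbbp4 -0.027 to 0.12, Rbbp7 -0.15 to 0.090, Phf19 -0.094 to 0.23 and Phf1 -0.32 to 0.30. Between mutants they were Suz12 -0.16 to 0.017 and Phf19 -0.25 to 0.027 in V against HxD, Jarid2 -0.29 to 0.023 and Phf1 -0.36 to 0.22 in HxD against KO, and Mtf2 -0.063 to 0.048 in V against KO. Among ratios they were Ezh1 to Ezh2 in HxD (-0.25 to 0.020) and Rbbp7 to Rbbp4 in KO (-0.048 to 0.11) and V (-0.21 to 0.029).

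Of the other results, single-gene values kept their direction and side of the threshold in 1316 of their alternative settings, with 10 gaining and 13 losing a call. Fits without libraries or of the compared groups alone kept the same 16166 genes. Without HxD1, KO1 and KO3, KO was 1 library, assumed in the gene fits to vary like the other groups, and its ratios had no test. Among the members, Phf1 had the fewest counts and the widest intervals.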
